A study of Mus musculus with 2 samples.

Results

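The CpG-sparse interiors of gene bodies were examined in 2 mouse haploid embryonic stem cell lines. A gene was a member when it was protein-coding, autosomal and held at least 20 compared CpGs that lay inside it, 5 kb or more from both of its ends, in fixed 1 kb windows with under 15 CpGs listed in both libraries. A compared CpG had at least 10 reads in each library. Of 20661 protein-coding autosomal genes 2288 met the rule, or 11.1%, and 8822 had at least 1 such CpG. The members held 99727 distinct CpGs, of 997556 compared on the autosomes and 449443 in sparse windows, and 0.725% of them belonged to 2 or more members. The rule used position, read number and CpG number and no methylation level.

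A129-2 is a haploid line on a 129Sv background and AOS-14 a haploid line on a C57BL/6 background, both with no treatment named. Each was derived by cell sorting from AG-haploid embryos, taken here as androgenetic, and each is represented by 1 library of genomic DNA. The study profiled CpG methylation in such lines by bisulfite sequencing. Line and strain cannot be told apart, and p-values compare the reads of these 2 libraries with no replicate check. The members had a median length of 124 kb (13.3 to 2271 kb), against 17.5 kb for all protein-coding autosomal genes, and a median of 34 CpGs each (20 to 444). Reads per CpG had a median of 81 in A129-2 versus 110 in AOS-14. Reads per gene, summed over its CpGs, ran from 686 to 97367 in A129-2 and from 1033 to 111388 in AOS-14. Whole libraries held 153035567 read calls at CpGs in A129-2 against 178315194 in AOS-14.

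CpG methylation is written by DNMT3A and DNMT3B and copied after replication by DNMT1. In most mammalian cells CpG islands at promoters are unmethylated while the bodies of genes are methylated, and over transcribed bodies the mark H3K36me3 left by elongating polymerase recruits DNMT3B. Mouse embryonic stem cells in a naive state are known for low global methylation.

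"Sparse" here counts CpGs listed in the files and not CpGs in the genome. The RefSeq promoter table, built on GRCm38.p6 (the assembly of mm10), gave sequence for alternative starts inside the members, and these 5 were chosen after their values were seen because they span the range of levels at starts within interiors. Each runs 5' to 3' from 250 bases before to 50 bases after the annotated start, and capitals mark the compared CpGs.
Tbc1d22a, chr15:86277425-86277724, plus strand: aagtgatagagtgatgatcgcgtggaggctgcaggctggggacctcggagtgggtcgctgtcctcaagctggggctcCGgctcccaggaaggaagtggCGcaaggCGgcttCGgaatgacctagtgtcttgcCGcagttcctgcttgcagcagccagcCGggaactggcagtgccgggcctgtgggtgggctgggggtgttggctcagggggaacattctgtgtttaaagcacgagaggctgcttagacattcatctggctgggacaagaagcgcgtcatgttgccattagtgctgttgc
Chdh, chr14:30021053-30021352, plus strand: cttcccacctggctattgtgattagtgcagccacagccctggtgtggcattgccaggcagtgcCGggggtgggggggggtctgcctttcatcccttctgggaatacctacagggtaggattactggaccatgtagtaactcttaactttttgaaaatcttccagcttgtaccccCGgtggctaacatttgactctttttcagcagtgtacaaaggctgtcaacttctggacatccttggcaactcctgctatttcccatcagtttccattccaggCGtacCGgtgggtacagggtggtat
Scn8a, chr15:100936021-100936320, plus strand: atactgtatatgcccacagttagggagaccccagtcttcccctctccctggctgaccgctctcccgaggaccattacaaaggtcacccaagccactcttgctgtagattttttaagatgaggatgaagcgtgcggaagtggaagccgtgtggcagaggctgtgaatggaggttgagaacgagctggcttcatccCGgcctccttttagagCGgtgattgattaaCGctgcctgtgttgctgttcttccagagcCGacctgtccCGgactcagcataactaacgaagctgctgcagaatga
Nkain2, chr10:32889866-32890165, minus strand: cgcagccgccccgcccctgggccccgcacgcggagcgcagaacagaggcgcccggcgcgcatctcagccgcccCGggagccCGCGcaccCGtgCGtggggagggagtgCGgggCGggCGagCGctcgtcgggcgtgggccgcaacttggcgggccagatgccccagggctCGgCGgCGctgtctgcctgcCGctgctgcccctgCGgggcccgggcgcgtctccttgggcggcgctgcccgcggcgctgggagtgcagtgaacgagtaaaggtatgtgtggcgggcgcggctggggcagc
Mtus2, chr5:148264967-148265266, plus strand: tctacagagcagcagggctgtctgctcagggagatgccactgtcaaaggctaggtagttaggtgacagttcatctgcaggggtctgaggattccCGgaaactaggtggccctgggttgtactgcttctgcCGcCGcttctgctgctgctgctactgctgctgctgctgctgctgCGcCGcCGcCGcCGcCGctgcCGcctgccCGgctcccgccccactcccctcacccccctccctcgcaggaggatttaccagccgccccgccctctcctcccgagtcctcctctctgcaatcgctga

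The stretch in Nkain2, which encodes a protein that interacts with the sodium pump, has 43 CpGs in 300 bases, of which 14 were compared. It lies in sparse sequence by the number of CpGs listed in both libraries. Levels of these starts are weighted by reads. That of Nkain2 was 0.760% in A129-2 (exact binomial 95% interval 0.0922 to 2.72) versus 1.46% in AOS-14 (0.475 to 3.37), against mean levels of 16.4% and 28.5% over the whole interior of the gene. Mtus2, a microtubule-associated gene, had 17 CpGs in its stretch and 11 compared, at 1.68% in A129-2 (0.984 to 2.68) against 1.45% in AOS-14 (0.981 to 2.06), beside interior levels of 18.01% and 31.0%. The libraries' intervals overlapped at both of these starts.

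The stretch in Tbc1d22a, a gene with a Rab GTPase-activating domain, was the most methylated start, at 25.3% in A129-2 (21.8 to 29.04) versus 38.04% in AOS-14 (34.6 to 41.6), and all 6 of its compared CpGs were lower in A129-2. Chdh, choline dehydrogenase, had 4 CpGs in 300 bases, all compared and all lower in A129-2, at 19.7% (15.7 to 24.3) and 33.6% in AOS-14 (29.7 to 37.7). Scn8a, a neuronal sodium channel, ran the other way, with 18.6% in A129-2 (16.7 to 20.6) against 10.8% in AOS-14 (9.36 to 12.3) and 4 of 5 CpGs higher in A129-2, inside an interior that was lower in A129-2 (15.3% against 21.2%). Of 921 such starts inside members, 50 had at least 4 compared CpGs, in 49 genes, with Tiprl counted at 2 starts that hold the same CpGs. The medians of their mean levels over CpGs, not weighted by reads, were 4.29% in A129-2 versus 5.35% in AOS-14, and 45 of the 50 lay below the mean of their own gene's interior in both lines.

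Sparse interiors were methylated at a low to middle level in both lines, and nearly every gene was lower in A129-2. Averaged over the CpGs of each gene and then over genes, the level was 17.4% ± 4.41 in A129-2 against 27.7% ± 7.32 in AOS-14 (SD over 2288 genes, which are not replicates). The mean difference, A129-2 minus AOS-14, was -10.3 percentage points (95% interval from counting error alone -10.3 to -10.2), and the mean ratio of A129-2 to AOS-14 was 0.638. Levels of genes ran from 3.65% to 35.3% in A129-2 and from 5.11% to 59.4% in AOS-14, with the extremes taken in each line on its own. The quartiles over genes were 14.7% and 20.1% in A129-2 and 23.2% and 32.0% in AOS-14, so the central parts of the 2 distributions did not overlap.

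A gene was called when Fisher's exact test on its summed reads (two-sided, Benjamini-Hochberg over all members) reached 0.05 after adjustment and its mean levels differed by at least 10 points. By this rule 1118 genes (48.9%) were lower in A129-2 and 0 (0%) higher. With no minimum size 2261 genes were lower by the same exact test, and no gene was higher even at an unadjusted p under 0.05. By direction alone 2284 genes were lower and 4 higher. Weighted by reads 2283 were lower and 5 higher, 2 of these 5 being higher by both measures. Within a gene, the median share of CpGs lower in A129-2 was 86.0%, and in 81 genes every CpG was lower.

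**Figure D1:**
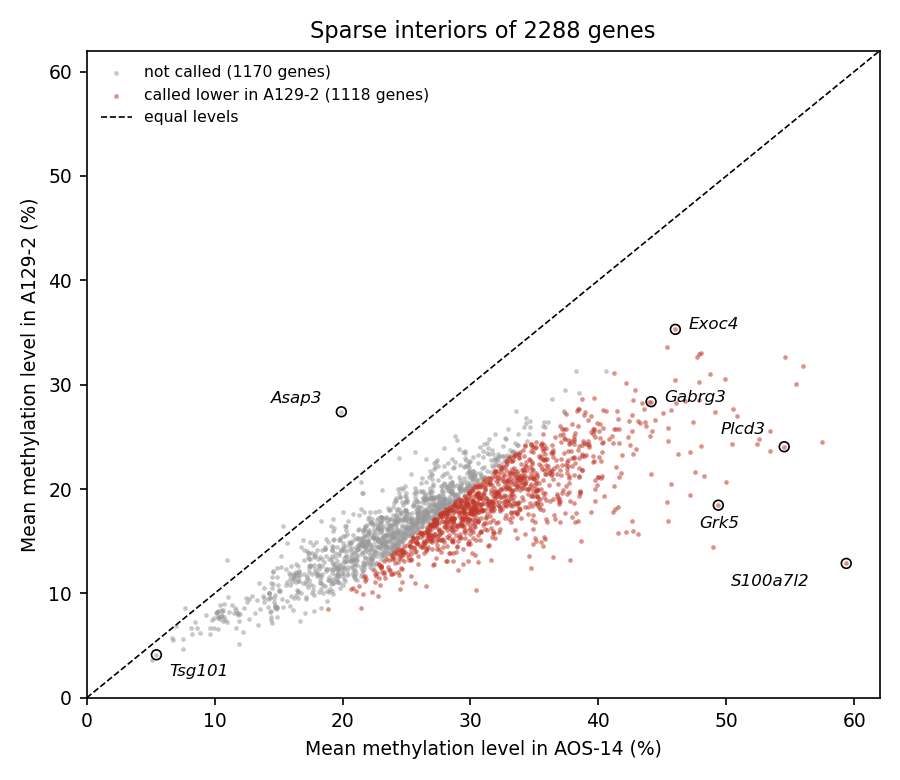
Mean methylation level of the sparse interior of each of 2288 genes, in percent, in A129-2 (vertical axis) and AOS-14 (horizontal axis), 1 point per gene, with the 1118 genes called lower in A129-2 in red, the others in grey and equal levels on the dashed line. All but 4 points lie below the line, Asap3 farthest above it (27.4% in A129-2 against 19.9% in AOS-14) and S100a7l2 farthest below it (12.9% and 59.4%).

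The order of genes was alike in the lines. Across genes, which share the 2 libraries and their CpG sets, the levels had a Pearson r of 0.840 and a Spearman rho of 0.833, given as a description. The ratio was not the same at all levels. It was 0.780 in the 19 genes under 10% in AOS-14, 0.646 in the 1186 genes of 20% to 30%, and 0.476 in the 13 genes of 50% or more. This order depended on the line that set the bins, and its cause was not tested. With bins set by A129-2, ratios lay between 0.600 (10% to 15%) and 0.669 (25% or more) and did not fall with level.

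Few genes reached high levels, and more did so in AOS-14. A level of 30% or more was reached by 16 genes in A129-2 and by 804 in AOS-14, and a level of 50% or more by 0 genes in A129-2 versus 13 in AOS-14. Of single CpGs in interiors, 2.02% stood at 50% or more in A129-2 against 11.2% in AOS-14. A share of 5.76% had no methylated read in A129-2 versus 2.68% in AOS-14. CpGs at which the strains may differ in sequence were not filtered out, and their part in these shares was not tested. Levels varied inside genes as well: the SD over the CpGs of a gene had a median of 11.5 points in A129-2 against 15.3 points in AOS-14.

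The rule's threshold of 20 CpGs did not mark a step in level. The 122 genes with exactly 20 CpGs averaged 17.2% in A129-2 versus 27.3% in AOS-14, and the 112 genes with 19, just outside, 18.2% and 29.4%.

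Differences were also called in 1 kb windows of at least 5 compared CpGs, by the same exact test and minimum over all 49222 autosomal windows, of which 14094 (28.6%) were lower in A129-2 and 54 (0.11%) higher. In sparse windows of member interiors 2943 of 6634 (44.4%) were lower and 13 (0.196%) higher. In sparse windows elsewhere 9754 of 24334 (40.1%) were lower and 35 (0.144%) higher, and in dense windows 1373 of 18205 (7.54%) were lower and 6 (0.033%) higher. The share in interiors was thus close to that of other sparse sequence and above that of dense sequence. Dense windows had means of 5.05% in A129-2 against 7.61% in AOS-14, under the 10 points that a call needs.

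The same order appeared inside the members. CpGs of their sparse windows averaged 17.5% in A129-2 versus 27.8% in AOS-14, and CpGs of their dense windows, also 5 kb or more from both ends, 6.13% and 9.63%. Sparse windows 5 kb or more from any gene stood at 18.2% and 30.9%, a ratio of 0.589 against 0.630 in the interiors. Weighted by reads the interiors had 16.2% in A129-2 (exact binomial 95% interval 16.2 to 16.2) against 27.1% in AOS-14 (27.0 to 27.1), counting error only. The sparse windows away from genes had 19.2% in A129-2 and 37.5% in AOS-14 by this weighting, which set the 2 classes farther apart.

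Over all CpGs, level fell with the number of CpGs per window without a step at 15. Interior CpGs alone in their window averaged 21.7% in A129-2 versus 33.3% in AOS-14, those in windows of 5 to 9 CpGs 16.7% and 26.7%, those in windows of 10 to 14 CpGs 14.9% and 24.4%, and those in windows of 15 to 19 CpGs, just outside the rule, 12.1% and 20.6%. The share of CpGs in the motif CCGG moved with this, from 97.5% at 1 CpG per window to 33.6% at 10 to 14.

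Levels differed between CpGs inside and outside CCGG. The motif held 52.7% of interior CpGs, and those CpGs averaged 22.2% in A129-2 against 33.4% in AOS-14, against 12.2% and 21.5% outside CCGG. Outside CCGG the level showed no steady fall up to 9 CpGs per window: it was 12.6% in A129-2 versus 20.2% in AOS-14 at 1 CpG, 11.8% and 21.4% at 2, and 12.4% and 21.8% at 5 to 9. It was lower in fuller windows, at 11.4% and 20.3% for 10 to 14 CpGs and 8.87% and 16.8% for 15 to 19. With CCGG left out, 313 of the 858 genes that kept enough CpGs were called lower. The part of the motif in the levels was not tested.

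Along the gene, methylation was lowest near the start and higher through the interior, in both lines. For the 1750 members whose strand the promoter table gives, sparse-window CpGs within 1 kb of the annotated start averaged 5.48% in A129-2 versus 6.90% in AOS-14. At 2 to 5 kb they averaged 12.4% and 18.8%, at 10 to 20 kb 16.2% and 26.0%, and beyond 100 kb 17.6% and 29.5%. Approaching the far end the levels stayed between 17.4% and 18.4% in A129-2 and between 26.4% and 29.3% in AOS-14. The low zone belonged to the start side of the gene.

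**Figure D2:**
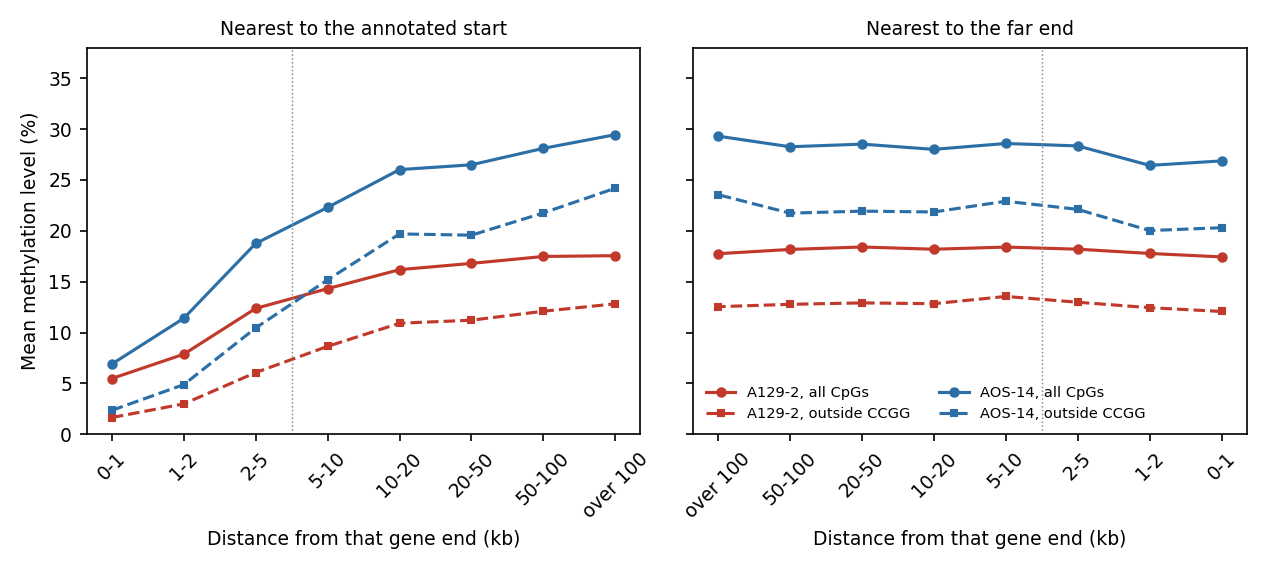
Mean level of sparse-window CpGs, in percent, by distance in kb from the annotated start (left) or the far end (right), whichever was nearer, in A129-2 (red) and AOS-14 (blue), for all CpGs (solid) and CpGs outside CCGG (dashed), in 1750 genes of known strand. The dotted line marks 5 kb, where interiors begin. Levels climb over the first 20 kb on the start side, to 16.2% in A129-2 against 26.0% in AOS-14 at 10 to 20 kb, and lie flat on the far side.

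The climb was present outside CCGG, where levels were 1.65% in A129-2 versus 2.35% in AOS-14 within 1 kb of the start, 10.9% and 19.7% at 10 to 20 kb, and 12.8% and 24.2% beyond 100 kb. The ratio of A129-2 to AOS-14 was 0.794 within 1 kb, 0.622 at 10 to 20 kb and 0.596 beyond 100 kb. With each gene cut into 10 equal parts, interiors averaged 15.8% in A129-2 against 25.3% in AOS-14 in the first part and 18.8% and 29.2% in the last.

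Interiors and ends of the same gene were compared within each line, in the 597 members with at least 10 compared sparse-window CpGs inside the gene and within 5 kb of an end. In A129-2 the interior was called higher in 155 genes (26%) and lower in 7 (1.17%), with mean levels of 17.0% in interiors and 11.7% at ends. In AOS-14 it was higher in 285 genes (47.7%) and lower in 29 (4.86%), with means of 26.5% and 17.6%. Calls used the exact test of Fisher, adjusted by Benjamini-Hochberg over these genes, and a minimum of 10 points, and the difference between lines in these counts was not tested. By direction 425 genes had the higher level in the interior in both lines.

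Smyd3, a SET-domain methyltransferase gene, had 25.8% in its interior and 3.55% at its ends in A129-2, and 40.3% and 4.13% in AOS-14. Sgcd, delta-sarcoglycan of the muscle membrane complex, had 24.4% and 4.32% in A129-2 and 40.3% and 6.37% in AOS-14. Both were called in both lines. Chosen after its values were seen, Golga4, a Golgi tether, had the widest gap in AOS-14, at 45.7% in the interior and 2.92% at the ends, with 27.6% and 2.66% in A129-2. In the opposite direction Plec, the cytoskeletal linker plectin, had 15.7% in the interior and 26.9% at the ends in A129-2, and 24.0% and 35.4% in AOS-14. The retinoic acid receptor genes Rarg and Rara had lower levels in the interior than at the ends, called in AOS-14 alone. Rarg had 5.52% and 13.8% in A129-2, and 6.72% and 19.7% in AOS-14. Rara, also chosen after its values were seen, had 11.96% and 19.9% in A129-2, and 15.8% and 32.8% in AOS-14. CCGG made up 51.6% of interior CpGs and 40.7% of end CpGs in these 597 genes. Outside CCGG, in the 219 genes with enough CpGs, means were 11.3% in interiors and 6.52% at ends in A129-2 and 19.6% and 10.6% in AOS-14.

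Over all interior CpGs, mean levels were higher in longer genes up to 500 kb in both lines. The 54 members under 25 kb averaged 15.3% ± 6.67 in A129-2 versus 24.8% ± 12.1 in AOS-14 (SD over genes). The 319 members of 25 to 50 kb averaged 16.5% ± 5.44 and 25.5% ± 8.91, and the 570 of 50 to 100 kb 17.3% ± 4.46 and 27.2% ± 7.34. The 604 members of 100 to 200 kb averaged 17.8% ± 4.06 and 27.8% ± 6.54, the 535 of 200 to 500 kb 18.2% ± 3.88 and 29.2% ± 6.46, and the 206 over 500 kb 17.1% ± 3.42 and 29.2% ± 5.76. Over 500 kb the mean was thus lower than at 200 to 500 kb in A129-2 and about equal in AOS-14. The trend over length was not tested. The spread over genes was narrower in longer genes, which had more CpGs each, with a median of 23.5 under 25 kb and 63 over 500 kb.

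**Figure D3:**
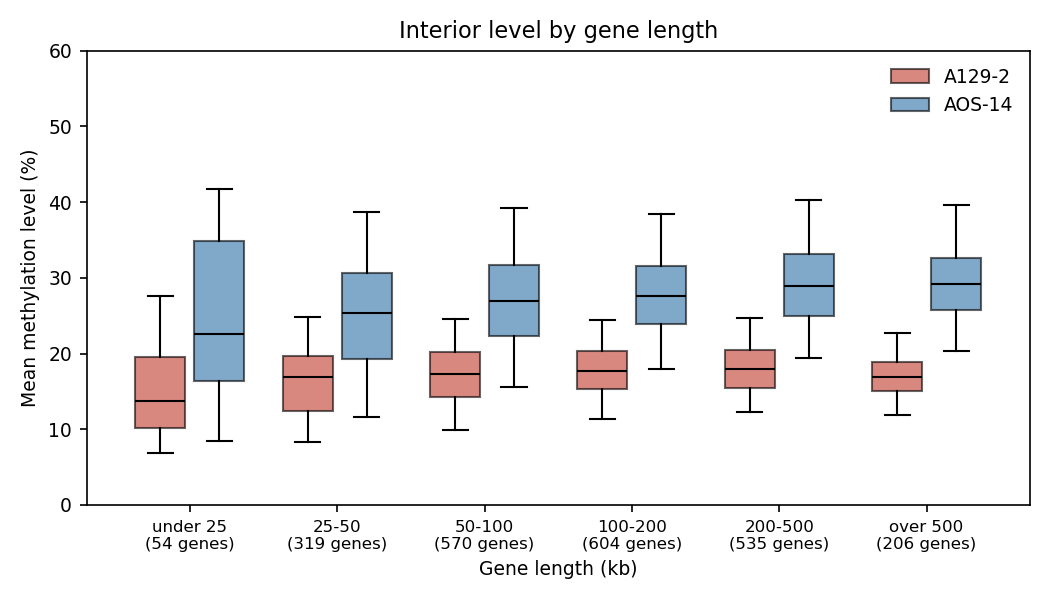
Mean level of the interior, in percent, by gene length in kb, in A129-2 (red) and AOS-14 (blue), with boxes at the quartiles, the line at the median and whiskers at the 5th and 95th percentiles over genes. Boxes overlap across all lengths within a line, with medians of 13.7% in A129-2 against 22.6% in AOS-14 under 25 kb and 16.9% and 29.2% over 500 kb.

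The share of genes called lower in A129-2 was 35.2% under 25 kb and 71.8% over 500 kb, beside a mean ratio of 0.654 and 0.592 and a CCGG share of 39.8% and 55.1%. Outside CCGG, the length groups from 25 kb up had, in order, 11.3%, 11.8%, 11.5%, 12.8% and 11.9% in A129-2. In AOS-14 they had 19.5%, 20.6%, 19.7%, 22.4% and 22.5%. Within CCGG the same groups had 22.3%, 22.4%, 22.2%, 22.4% and 21.1% in A129-2, with no steady rise over length. Their AOS-14 levels were 32.4%, 33.0%, 32.7%, 33.6% and 33.3%. CpGs in recurrent spacing patterns, meaning runs of at least 5 CpGs whose spacing recurs at 20 or more loci as repeats can do, made up 7.56% of CpGs in genes under 25 kb, 3.84% at 25 to 50 kb and 9.52% over 500 kb. The part of these shares in the counts was not tested.

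The genes with the largest differences, among members of at least 50 CpGs, reached about the middle of the methylation scale in AOS-14. Plcd3, a phospholipase C that cleaves phosphoinositides (chromosome 11, 103070296 to 103101710), had mean levels of 24.1% in A129-2 versus 54.5% in AOS-14 over 50 CpGs, 48 of them lower in A129-2. Weighted by reads these were 24.4% (exact binomial 95% interval 23.0 to 25.9) and 55.2% (54.1 to 56.2), and the adjusted p was 8.08e-216 by Fisher's exact test. Its 5 windows of at least 4 CpGs ran from 15.01% to 38.1% in A129-2 and from 49.2% to 66.4% in AOS-14, with no overlap. A sixth window of 3 CpGs, 7.83 kb from the start, was low in both lines, at 7.32% and 5.41%.

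Miga1, which encodes a protein of the outer mitochondrial membrane, had 23.7% in A129-2 against 53.4% in AOS-14 (adjusted p = 7.74e-261, exact test). Malrd1, a large membrane protein gene, had 21.3% and 48.2%, Coro2b, an actin-binding coronin, 21.6% and 47.5%, and Rsrc1, a splicing factor gene, 20.5% and 45.7%. In each of these genes every window of at least 4 CpGs was lower in A129-2. Recurrent spacing patterns held 23 of the 50 CpGs of Plcd3, 16 of 54 in Miga1, 16 of 72 in Malrd1, 8 of 54 in Coro2b and 16 of 66 in Rsrc1, against 5.05% of all interior CpGs. In sparse windows 5 kb or more from any gene they held 12.8% of CpGs.

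Fgf12, which encodes an intracellular modulator of sodium channels, had 15.7% in A129-2 versus 43.1% in AOS-14, with 40 of 82 CpGs in recurrent patterns. Its difference of -27.4 points was -12.5 without these patterns, -13.3 in windows under 10 CpGs and -18.2 in windows under 25. It was -18.6 with each window counted once, -18.9 over the 61 CpGs left without the 1% deepest CpGs, and -43.1 weighted by reads. In A129-2 its windows of 12 CpGs at 459 and 252 kb held 9252 and 11111 of its 29816 reads. Its windows differed widely. At 458 kb from the start, 8 CpGs, all recurrent, had 11.99% in A129-2 against 65.0% in AOS-14, and at 252 kb 12 recurrent CpGs had 19.3% and 66.6%, but at 529 kb 5 CpGs, also all recurrent, had 19.998% and 28.0%. At 291 kb, 7 CpGs outside such patterns had 35.5% and 55.6%, and at 196 kb 2 CpGs had 9.22% and 8.92%.

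Outside the rule for named genes, and chosen after its values were seen, S100a7l2 had the largest difference of all members, at 12.9% in A129-2 versus 59.4% in AOS-14. The gene spans 19.3 kb of chromosome 3, and its 23 CpGs, all lower in A129-2, lie in 4 windows, with 11 in recurrent patterns. Grk5, a kinase of G protein-coupled receptors chosen in the same way, had 18.5% and 49.4%, with all of its 34 CpGs lower and 7 of them recurrent. The 13 genes at 50% or more in AOS-14 had 29.6% of their CpGs in recurrent patterns and a median length of 46.8 kb. In the 10 interior windows with the largest differences, 9 consisted mostly or wholly of such CpGs.

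Among genes of at least 50 CpGs, the highest levels beside those above belonged to Gabrg3 and Myh9. Gabrg3, a GABA-A receptor subunit, had 28.4% in A129-2 versus 44.1% in AOS-14 (adjusted p = 1.36e-46, exact test), and its 5 windows of at least 4 CpGs lay between 28.8% and 39.3% in A129-2 and between 41.8% and 59.7% in AOS-14. Myh9, the heavy chain of nonmuscle myosin IIA, had 27.1% and 42.6% (adjusted p = 1.34e-103, exact test) with no CpG in a recurrent pattern. Its 7 windows of at least 4 CpGs ran from 10.1% to 42.4% in A129-2 and from 29.2% to 54.4% in AOS-14. Exoc4, an exocyst subunit gene named after its values were seen, had the highest level in A129-2, at 35.3%, beside 46.0% in AOS-14.

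The lowest genes differed by less than 10 points between the lines, though not all by a small ratio. Nfic, a nuclear factor I gene, had 8.96% in A129-2 versus 10.7% in AOS-14, and outside CCGG 2.92% and 2.95%. Tbx5, a heart and limb regulator, had 9.56% and 12.5%, Ccnd3, cyclin D3, 8.25% and 14.3%, and Tex14, needed for bridges between germ cells, 7.02% and 13.4%. Pcdhga7, a clustered protocadherin whose interior CpGs are shared with its neighbours in the cluster, had 7.48% and 9.83%, and Ppp2r2b, a regulatory subunit of protein phosphatase 2A, 9.33% and 13.3%. None was called, although each passed the exact test itself at 0.05. Their AOS-14 levels of 9.83% to 14.3% left little or no room for a fall of 10 points. The ratio of A129-2 to AOS-14 was 0.522 in Tex14 and 0.577 in Ccnd3, below the mean of 0.638 over members, and 0.835 in Nfic. With each window counted once, an alternative chosen after seeing the data, Tex14 differed by -11.4 points and was called. Tsg101, an endosomal sorting gene chosen after its values were seen, had 4.12% and 5.45% over 25 CpGs in only 3 windows. An annotated alternative start held 19 of these CpGs and 4754 of the gene's 5234 reads in A129-2, with mean levels of 2.07% and 3.72% at the start.

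The 5 longest members, 4 of them neuronal adhesion or receptor genes, were called lower in A129-2. None differed by the 25 points of the stricter setting, and Ptprd and Lsamp also missed the call under other settings. Ptprd fell short at -9.60 points with CpGs of at least 5 reads, and Lsamp at -9.97 and -9.56 in windows under 10 and under 25 CpGs. Lrp1b, of the LDL receptor family, had 23.4% in A129-2 against 42.7% in AOS-14, with 125 of 133 CpGs lower. Cntnap2, a neurexin-related adhesion gene, had 16.1% and 32.3% (adjusted p = 4.17e-240, exact test). Macrod2, an ADP-ribose hydrolase, had 18.9% and 34.1%, Ptprd, a receptor tyrosine phosphatase, 19.5% and 31.1%, and Lsamp, an adhesion gene of the limbic system, 16.3% and 27.9%.

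**Figure D4:**
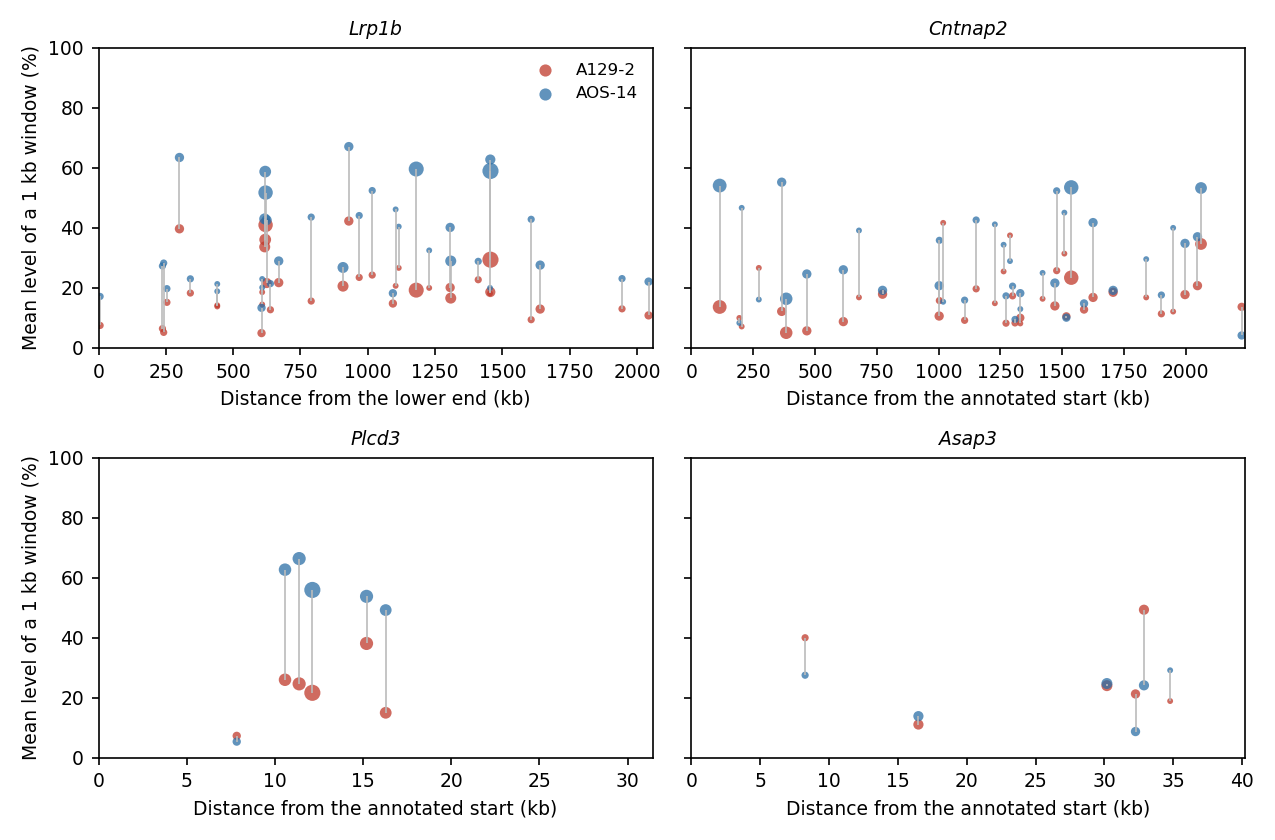
Mean level of each 1 kb window, in percent, along 4 genes by distance in kb, in A129-2 (red) and AOS-14 (blue), with point area growing with the number of compared CpGs and a grey line joining the 2 lines at a window. Distance runs from the annotated start, except in Lrp1b, where it runs from the end with the lower coordinate because no strand was given. In Lrp1b all 37 windows are lower in A129-2, in Cntnap2 a few small windows are higher, in Plcd3 5 windows are at least 15.7 points apart, and in Asap3 3 of 6 windows are higher in A129-2.

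Levels inside these long genes were patchy. In Lrp1b windows of at least 4 CpGs ran from 12.96% to 42.3% in A129-2 and from 26.8% to 67.1% in AOS-14. The widest gap was 18.6% in A129-2 against 62.8% in AOS-14 over 5 CpGs, all in recurrent patterns, 1455 kb from the lower end. At 1180 kb, 12 CpGs outside such patterns had 19.3% and 59.6%. In Cntnap2 the 4 CpGs at 365 kb, none recurrent, had 12.2% in A129-2 versus 55.2% in AOS-14, while the 4 CpGs at 1707 kb had 18.6% and 19.2%.

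Without predicted gene names, the 5 members with the most CpGs were Gse1, Camta1, Wwox, Cdh13 and Zfhx3. Gse1, a chromatin complex gene with 444 CpGs in 112 windows, had 15.03% in A129-2 against 22.7% in AOS-14, and weighted by reads 14.3% (14.02 to 14.5) and 21.7% (21.4 to 22.1), exact binomial 95% intervals. It was not called, being 7.72 points apart, although its adjusted p was 3.82e-293 by the exact test. Camta1, a calmodulin-binding transcription activator, had 15.9% and 25.5% and also fell short of 10 points. Wwox, a WW-domain oxidoreductase, had 19.5% and 31.0%, Cdh13, the cadherin without a membrane-spanning part, 16.9% and 29.4%, and Zfhx3, a homeobox factor, 18.3% and 29.6%, and these 3 were called. Wwox missed the minimum without CCGG, at -9.33 points, and Zfhx3 when weighted by reads, at -9.67. Windows of Zfhx3 ran from 1.34% to 31.7% in A129-2 and from 1.44% to 62.1% in AOS-14, a wider range than between the means of most genes.

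Gene lists were read beside all members, of which 48.9% were called lower and whose medians were 17.5% in A129-2 versus 27.6% in AOS-14. No list had a gene called higher, and every list member was lower in A129-2.

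**Figure D5:**
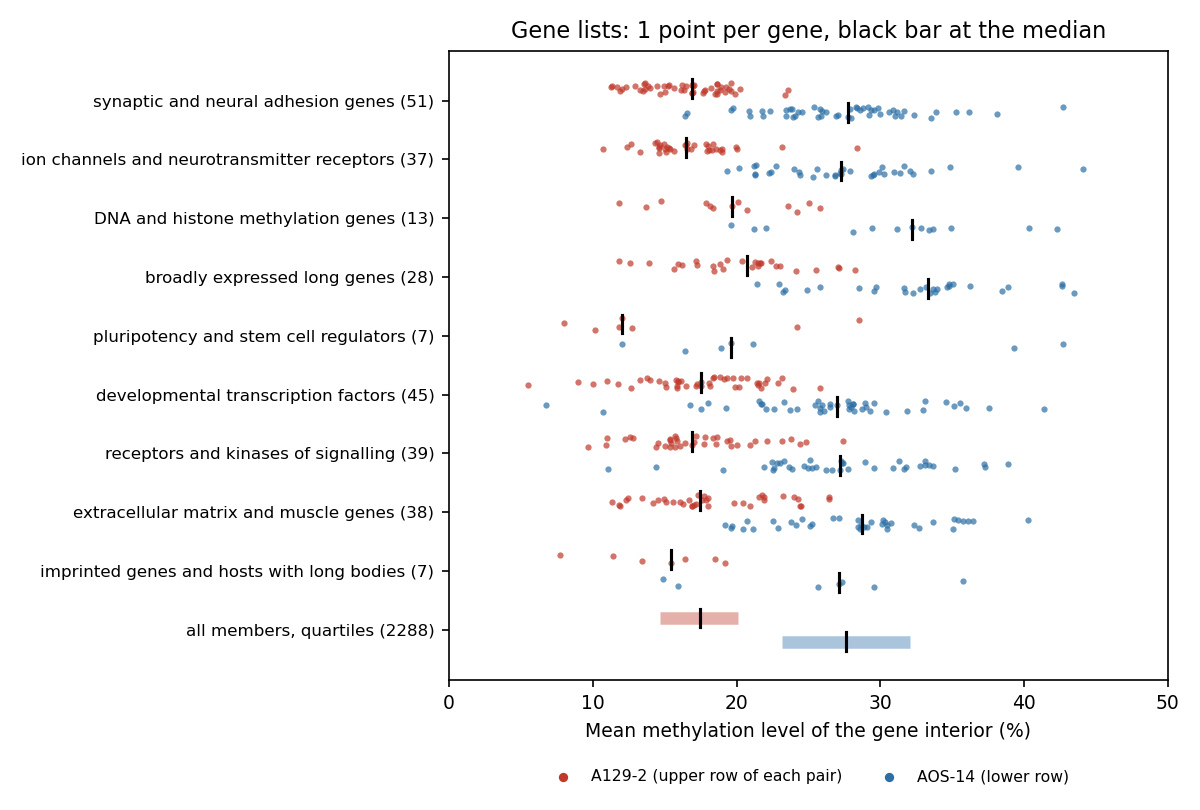
Mean level of the interior, in percent, of each gene of 9 lists, in A129-2 (red, upper points) and AOS-14 (blue, lower points), with black bars at list medians and, at the bottom, bars from the first to the third quartile of all 2288 members. Broadly expressed long genes have the highest medians (20.7% in A129-2 against 33.3% in AOS-14) and pluripotency regulators the lowest (12.03% and 19.6%, 7 genes).

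Of 28 broadly expressed long genes among the members, 24 were called lower, with medians of 20.7% in A129-2 versus 33.3% in AOS-14. Prkdc, the catalytic subunit of DNA-dependent protein kinase, had 28.3% and 43.5% (adjusted p = 8.06e-114, exact test), and its 6 windows of at least 4 CpGs ran from 18.7% to 37.4% in A129-2 and from 34.9% to 55.6% in AOS-14. Usp24, a deubiquitinase, had 25.6% and 42.6%. At the low end Tnrc6b, of the microRNA silencing complex, had 12.6% and 21.4% and was not called. With each window counted once it was called, at -11.3 points. RNA was not measured in these libraries, so expression in these cells is not known from them.

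Of 13 genes of DNA and histone methylation, 7 were called, with medians of 19.7% and 32.2%. Dnmt1, the maintenance methyltransferase, had 18.3% in A129-2 against 32.2% in AOS-14 (adjusted p = 8.38e-48, exact test). Dnmt3a, a de novo methyltransferase, had 23.6% and 29.4% and was not called, and its 4 windows of at least 4 CpGs lay between 4.88% and 36.1% in A129-2 and between 6.15% and 39.1% in AOS-14. The intervals of the read-weighted levels did not overlap at either gene, at 17.1% (15.99 to 18.3) and 29.7% (28.5 to 30.9) in Dnmt1 and 23.4% (22.04 to 24.7) and 30.6% (29.4 to 31.9) in Dnmt3a.

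Histone methyltransferase genes were among the called members. Dot1l, which acts on histone H3 lysine 79, had 25.04% in A129-2 versus 42.3% in AOS-14, and Smyd3 the values given above. The H3 lysine 4 methyltransferases Kmt2d and Kmt2a had 19.7% and 34.9%, and 17.9% and 33.4%. The demethylase Kdm4a, with 20.1% and 32.9%, and the methyl-CpG-binding gene Mbd2, with 20.7% and 31.2%, were also called. Tet3, a dioxygenase that oxidises methylcytosine, had 24.2% and 33.7%, and Prdm16, a PR-domain factor, 18.1% and 28.1%, both short of 10 points apart. With the same minimum Tet3 was called under 6 other settings, at -14.4 points when weighted by reads, and Prdm16 under 3, while Mbd2 missed the call under 4, at -8.30 with each window counted once. Kdm2b, an H3 lysine 36 demethylase gene, had 14.8% and 22.1%, Mecom 13.7% and 21.2%, and Jarid2, of the PRC2 complex, 11.9% and 19.6%, and these were not called. Jarid2 was called with each window counted once, at -10.002 points.

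Of 7 pluripotency and stem cell regulators 2 were called, and the 7 fell into low and high genes. Stat3, the effector of LIF signalling, had 28.5% in A129-2 against 42.7% in AOS-14 (adjusted p = 2.92e-47, exact test), and Lifr, the LIF receptor, 24.2% and 39.3%. Trim71, an RNA-binding factor of early development, had 8.02% and 12.003%, Nr5a2, a nuclear receptor, 10.2% and 18.9%, Esrrb, an orphan nuclear receptor of naive cells, 12.03% and 16.4%, Tcf7l1, a repressor in the Wnt pathway, 12.7% and 21.2%, and Jarid2, also in this list, the values above. In Stat3 the 9 CpGs at 36.0 kb from the start had 33.4% in A129-2 versus 50.7% in AOS-14, and the 4 CpGs at 45.9 kb 7.95% and 10.1%.

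Synaptic and neural adhesion genes had 33 of 51 members called and medians of 16.9% and 27.7%, at a median length of 969 kb. Negr1, a neuronal growth regulator, had 18.6% and 38.1%, and Dlgap1, a postsynaptic scaffold gene, 11.9% and 16.4%, not called. Ion channels and neurotransmitter receptors had 25 of 37 called and medians of 16.5% and 27.3%. Ryr3, a calcium release channel, had 17.0% and 34.8%, not called at -7.02 points in windows under 10 CpGs, -9.44 without recurrent patterns and -9.51 with each window counted once. Kcnh7, a potassium channel, had 12.6% and 19.4%, not called, but called at -12.9 points with each window counted once. These 2 lists had the longest median lengths of the 9, the second at 427 kb. Of all members, 71.8% were called over 500 kb and 57.4% at 200 to 500 kb.

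Developmental transcription factors had 14 of 45 called and medians of 17.5% and 27.0%. Rxra, the retinoid X receptor, had 22.2% in A129-2 against 41.4% in AOS-14, all 38 CpGs being lower, whereas Rarg, the retinoic acid receptor gamma, had 5.52% and 6.72%. Rarg outside CCGG had 1.62% and 1.92%. Receptors and kinases of signalling had 20 of 39 called and medians of 16.9% and 27.2%. Camk1d, a calmodulin-dependent kinase, had 19.6% and 37.2% and was called, Fgfr2, a fibroblast growth factor receptor, 27.4% and 37.3%, just short of 10 points but called at -11.9 when weighted by reads, and Ntrk3, a neurotrophin receptor, 9.64% and 11.03% (adjusted p = 0.0761, exact test).

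Extracellular matrix and muscle genes had 21 of 38 called and medians of 17.4% and 28.7%. Sgcd had 24.4% and 40.3%, and the collagen gene Col22a1 11.8% and 19.6%, not called. Of 7 imprinted genes or hosts 3 were called, with medians of 15.5% and 27.1%. Gab1, an adaptor of receptor signalling, had the widest gap in that list, at 15.5% in A129-2 versus 35.8% in AOS-14 with 34 of 35 CpGs lower, and its 3 windows of at least 4 CpGs ran from 4.93% to 17.2% in A129-2 and from 35.9% to 38.8% in AOS-14. Jade1, a histone acetylation scaffold, had 7.73% and 14.9%, and Igf2r, the receptor that clears IGF2, 11.4% and 15.9%.

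The 4 members with the higher mean in A129-2 were Asap3, Mrc1, L3mbtl1 and Pde4c, named after their values were seen. Asap3, a GTPase-activating gene for Arf proteins, had 27.4% in A129-2 against 19.9% in AOS-14, but weighted by reads 19.5% (exact binomial 95% interval 18.2 to 20.8) and 18.3% (17.3 to 19.4), which overlap. Its window with the widest gap, 5 CpGs of chromosome 4 at 136239156 to 136239282, had 49.3% and 24.2%, from 411 reads in A129-2 versus 256 in AOS-14. A window of 4 CpGs was also higher in A129-2, at 21.3% against 8.75%. Of its 4 windows with at least 4 CpGs, 2 were lower in A129-2. Mrc1, the macrophage mannose receptor, had 13.2% and 11.01%, L3mbtl1, a reader of methylated histones, 16.4% and 15.3%, and Pde4c, a cyclic AMP phosphodiesterase, 8.58% and 7.69%. Weighted by reads, L3mbtl1 was at 12.7% and 13.03%, and Pde4c at 7.02% and 8.22%, so their direction depended on the weighting.

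Of the 13 interior windows called higher in A129-2, that in Rbm20, a splicing regulator of heart muscle, had the widest gap. Its 9 CpGs of chromosome 19 at 53698009 to 53698316 had 32.3% in A129-2 versus 6.62% in AOS-14, from 1325 and 1305 reads. The whole interior of Rbm20 had 14.8% and 15.6% over 78 CpGs, of which 46 were lower in A129-2, but weighted by reads 17.3% and 16.8%, with overlapping intervals (16.4 to 18.1 and 16.03 to 17.6). In Ptprd 5 CpGs at 76728844 to 76728882 of chromosome 4 had 30.7% in A129-2 versus 11.3% in AOS-14, from only 83 reads in A129-2 against 845 in AOS-14. In Scp2, a sterol carrier gene, 6 CpGs of chromosome 4 at 108079356 to 108079428 had 21.6% and 9.10%, from 1894 and 2747 reads (adjusted p = 2.45e-33, exact test), inside an interior at 17.0% and 18.3%. In Trpm1, a cation channel, 6 CpGs of chromosome 7 had 41.7% and 26.3%, inside an interior at 20.6% and 26.2%.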

How the data were processed

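Genomic DNA of 1 library per line was sequenced after bisulfite treatment. Per the labels' protocols the libraries were captured with a methylation panel of about 100 Mb and read as pairs of 50 bp, while the series title names RRBS, and the labels do not settle which was used. The reads were placed on mm10, and BSMAP is named, per the submitters' processing notes; for its version, trimming and duplicate removal the sources used here give nothing. Per the file headers, the authors deposited a methylation fraction per CpG and the counts of reads and methylated reads behind it, both strands added; the fraction equalled the ratio of these deposited counts within 0.0005, and levels were recomputed from the counts as percent.

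Only CpGs that each library covered with at least 10 reads were kept. None was removed for a possible sequence difference between the strains. Gene bounds are those of RefSeq on GRCm38.p6 (exons and introns not used here). Strands are from its promoter table, matched by gene identifier for 1750 of 2288 members. The planned fallback by CpG-dense end was not used, and the other members were left out of oriented results. A gene's level is the mean over its CpGs. Reads were compared by a two-sided Fisher's exact test, and p-values were adjusted by Benjamini-Hochberg over all members, all windows, or all genes with ends. The calls were first tried on simulated reads drawn independently at each CpG. That trial could not check the effect of reads shared between CpGs, PCR copies or variation between libraries. Intervals are exact 95% binomial and, with PCR reads and no molecular identifiers, cover counting error only. Reads of a gene, window or start are sums over its CpGs, so a read across several CpGs counts at each. Intervals and p-values take these counts as independent, so intervals are too narrow and p-values too small where CpGs share reads. The shallowest gene had 686 such counts in A129-2, an interval of 9.36% to 14.3%.

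Named genes, among members with at least 50 CpGs and without predicted names, are the 6 called with the largest difference each way, the 6 highest and 6 lowest (leaving out genes sharing most CpGs), the 5 longest and the 5 with most CpGs, plus the highest, lowest and most different of each list and all of the methylation list. The members and the 9 lists were chosen with earlier results of these data known. Alternatives varied reads, windows, distances, CpG numbers, weighting, CCGG, recurrent patterns, depth and the size of difference. Python 3.11.15, pandas 2.3.3, numpy 2.4.6, scipy 1.17.1 and matplotlib 3.10.9 were used.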

Additional observations from a re-analysis of the deposited data

Results flagged for a closer look

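X-linked genes were outside the autosomal comparison. The 32 X-linked protein-coding genes that met the same rule had a mean interior level of 17.4% in A129-2 (range over genes 6.54 to 29.8) against 30.8% in AOS-14 (9.03 to 53.9), a signal in data not used above. All 32 were lower in A129-2, and 23 were called at 10 points. Phka1, a regulatory subunit of phosphorylase kinase, had the largest difference, at 17.0% in A129-2 versus 53.4% in AOS-14.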

How the results depend on the processing

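The mean difference of -10.3 points stayed between -10.6 and -9.21 under 19 settings, and neither it nor the difference of any of the 56 named genes reversed. Among genes singled out after their values were seen, L3mbtl1, Pde4c and Rbm20 changed direction when weighted by reads. It was -10.3 and -10.4 with at least 20 and 50 reads, -10.4 and -9.66 with under 10 and under 25 CpGs per window, -10.1 and -10.5 at 2 and 10 kb from the ends, -10.5 and -10.1 with at least 10 and 50 CpGs per gene, -10.5 weighted by reads, -10.6 without CpGs near other gene ends, -9.21 without CCGG and -10.1 without recurrent patterns. Chosen after seeing the data, counting each window once gave -10.6 and weighting CCGG and other CpGs equally gave -10.2. These moved by more than the counting interval of 0.0516 points. The 1118 genes called lower became 658 of 1320 tested at 50 reads, 2110 of 4162 and 300 of 624 at 10 and 50 CpGs per gene, 313 of 858 without CCGG, 23 at 25 points and 2261 with no minimum. No gene was called higher under any of these.

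The gap of interior over ends was 9.05 points in A129-2 against 15.7 in AOS-14 for ends of 2 kb, with 1 and 8 genes called lower, and, in an alternative chosen after seeing the data, 4.79 and 9.03 without CCGG, where 60 and 104 genes were called higher and 12 lower in AOS-14. Genes of 200 to 500 kb exceeded those of 25 to 50 kb by 1.71 points in A129-2 versus 3.77 in AOS-14, by 2.40 and 1.78 with at least 50 CpGs, and by 0.530 and 1.08 without CCGG, the last chosen after seeing the data. Of 10 equal parts of the gene, the last exceeded the first by 2.98 and 3.86 points, and by 2.75 and 3.48 in genes of at least 100 kb. Over 56 named genes, 907 values kept their direction and call, 39 lost the call and 38 gained it. These counts include the settings of 25 points and of no minimum, which can change a call but leave the levels unchanged. The cause of the other changes was not tested, beyond the fewer or more genes and CpGs that a setting leaves. No paired analysis was possible because each line has 1 library, and none could be left out. Depth limits single CpGs more than genes.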

Other observations

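Gene families were grouped by shared symbol stems of at least 12 members. Their counts of called genes are to be read beside the 48.9% of all members called lower, and collagen and solute carrier genes lay near that share. The 12 Pcdhga genes, clustered protocadherins that share most of their interior CpGs, had medians of 8.18% in A129-2 against 10.6% in AOS-14 and 0 called genes in Fisher's exact test at 10 points. Such levels leave little or no room for a fall of 10 points, so that count was largely set by the level. The 12 Pcdha genes of the neighbouring cluster, which also share CpGs, had 17.3% and 23.0% and 0 called. The 14 Atp genes, mostly ion pumps and their subunits, had 19.6% and 33.0% with 11 called, the 21 collagen genes 18.002% and 29.7% with 12 called, the 43 solute carrier genes 17.2% and 28.0% with 23 called, and the 14 kinesin genes 17.6% and 25.2% with 2 called.

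By chromosome, mean interior levels ran in A129-2 from 15.5% on chromosome 18, which holds the protocadherin clusters, to 19.5% on chromosome 12, and in AOS-14 from 23.5% to 30.6% on the same chromosomes. The ratio of A129-2 to AOS-14 lay between 0.592 on chromosome 8 and 0.659 on chromosome 18. Rtl1, a paternally expressed imprinted gene of the Dlk1-Meg3 domain on chromosome 12, was among the 16 genes at 30% or more in A129-2, at 32.6% beside 47.7% in AOS-14; it was singled out after its value was seen.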
